A study of Rattus norvegicus with 16 samples.

Results

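Genes shared by CA2 and CA3 are genes of the rat hippocampus with higher transcript levels in both of these neighbouring subfields than elsewhere. These genes had at least 2 times the level found in CA1 and in the dentate gyrus (DG). They were chosen by their measured levels in CPM, the reads of a gene per 1000000 counted reads of its library, with 2 mitochondrial genes left out of the total. A member had means of at least 5 CPM in CA2 and in CA3, the lower of which was at least 2 times both the CA1 and the DG mean, and its CA2 and CA3 means were within 2-fold of each other. Of the 32883 genes listed, 64 met this rule. High levels in CA2 and CA3, low levels in CA1 and DG and a like level in CA2 and CA3 were therefore selected on, and are described below without a test. The rule put a ceiling on the CA1 mean and on the DG mean but did not relate them to each other, and this relation was tested.

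The study sequenced the RNA of the pyramidal cell layers of CA1, CA2 and CA3 and of the granule cell layer of DG, cut by laser from Nissl-stained brain sections of male Wistar rats aged 3 months. Each subfield has 4 libraries, numbered 1 to 4, and the study took them from 4 rats, so that the subfields share animals. CA2 was recognised under the microscope by the form and packing of its pyramidal cells, without a molecular label. Counted reads ranged from 3216512 in CA1 replicate 4 to 11933279 in CA3 replicate 2. With the 2 mitochondrial genes left out, 1 read was worth between 0.105 and 0.404 CPM. In CA2, replicates 2 and 4 agreed within sampling noise, the chi-square of their counts being 1.001 per degree of freedom over 12995 genes (p = 0.456). For the DG libraries with these numbers the chi-square was 1.04 over 13766 genes on this scale (p = 0.00176), so that a small difference beyond sampling noise was detected. The other 22 pairs of libraries of a subfield had values between 2.80 and 43.5. Both close pairs were under the limit of 1.1 set here for repeated libraries and entered the test, the summed levels and the SDs as 1 sample each, which leaves n = 3 in CA2 and DG and n = 4 in CA1 and CA3. The rule takes the mean of all 4 libraries of a subfield, and so do the means, margins and ratios of CA2 over CA3 given for its members, in which a repeated pair counts as 2.

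In the hippocampal circuit, granule cells of the DG send mossy fibres to the large pyramidal cells of CA3, which are linked to each other by recurrent collaterals and project through the Schaffer collaterals to CA1. CA2 lies between CA3 and CA1, receives input from CA3 and from the entorhinal cortex, and is known for its role in social memory and for the resistance of its synapses to long-term potentiation. CA2 and CA3 pyramidal cells have larger cell bodies than those of CA1.

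The files give genes by Ensembl identifier and do not pair these with names. The study's list of subfield markers pairs 288 identifiers with symbols, and none of the 64 members is among them. The members are therefore described by their levels, and 4 of them by identifier. The function, protein and promoter of the members were not analysed here.

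The subfield labels were checked with marker genes that have a symbol. All of them stand on the study's list, which was chosen on these samples. The study also gives Amigo2 and Prox1 as markers known from earlier work. Wfs1, which encodes a protein of the endoplasmic reticulum and marks CA1 pyramidal cells, had 786 to 993 CPM in the 4 CA1 libraries and 13.5 to 20.5 CPM in the 4 DG libraries. Prox1, a transcription factor of granule cells, had 401 to 545 CPM in DG and at most 23.6 CPM in any other library. Amigo2, a cell adhesion molecule that marks CA2, had 116 to 187 CPM in CA2 and at most 27.1 CPM elsewhere. Gjd2, which encodes the neuronal gap junction protein connexin 36 and stands on the study's CA3 list, had 25.95 to 34.1 CPM in CA3 and at most 5.004 CPM elsewhere. Each of these markers was highest in the libraries of its own subfield.

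Some libraries also held reads of a neighbouring subfield's markers. In CA3, Wfs1 had 129 CPM in replicate 2 against 10.6, 15.7 and 17.0 CPM in replicates 1, 3 and 4. In CA2, Wfs1 had 165 and 168 CPM in replicates 2 and 4, 105 CPM in replicate 3 and 65.9 CPM in replicate 1. In CA1, Amigo2 had 26.5 CPM in replicate 2 and 16.9 CPM in replicate 3, against 10.1 CPM in replicate 4 and 7.40 CPM in replicate 1. Cacng5, a regulatory subunit of AMPA receptors that marks CA2 with 51.4 to 71.2 CPM, had 10.7 and 12.4 CPM in CA1 replicates 2 and 3, against 3.64 and 3.04 CPM in replicates 4 and 1. Of 8 CA2 markers fixed for this work, a list other than the study's own, 4 have an identifier (Amigo2, Cacng5, Ccdc3 and Ntf3), and these summed to 189 to 274 CPM in CA2, 12.4 to 41.8 CPM in CA1, 28.8 to 33.2 CPM in CA3 and 55.4 to 74.5 CPM in DG. Ntf3, which encodes neurotrophin-3 and stands on the study's DG list, had 49.2 to 69.1 CPM in DG, 9.33 to 14.5 CPM in CA2 and at most 4.85 CPM in CA1 and CA3. The 7 genes with an identifier among 9 DG markers fixed for this work summed to 1421 to 1536 CPM in DG and 61.2 to 74.4 CPM in CA1. In CA2 they summed to 93.004 and 98.04 CPM in replicates 2 and 4 against 63.9 and 75.7 CPM in replicates 1 and 3, and in CA3 to 121.6 CPM in replicate 4 against 83.5 to 93.4 CPM in the others. The libraries numbered 1 also stood apart, as they deviated from the means of their subfields in the same genes, with correlations between 0.608 and 0.685 across 9316 genes. Markers of glia, vessels and interneurons have no identifier in the sources used here and were not analysed. In tissue cut by laser, fewer cells of a type and less RNA per cell cannot be told apart.

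Together, the 64 members made up 0.484 to 0.624% of the reads outside the 2 mitochondrial genes in CA2 and 0.615 to 0.689% in CA3, against 0.143 to 0.180% in CA1 and 0.111 to 0.123% in DG. In CA2 their summed level was 5579 ± 684 CPM (SD, n = 3), and in CA3 it reached 6395 ± 346 CPM (SD, n = 4). CA1 had a summed level of 1574 ± 164 CPM (SD, n = 4), while DG had the lowest, 1160.0 ± 60.6 CPM (SD, n = 3). The 3 most abundant members carried 35.5% of the summed level in CA2 and 41.9% of that in CA3.

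**Figure D1:**
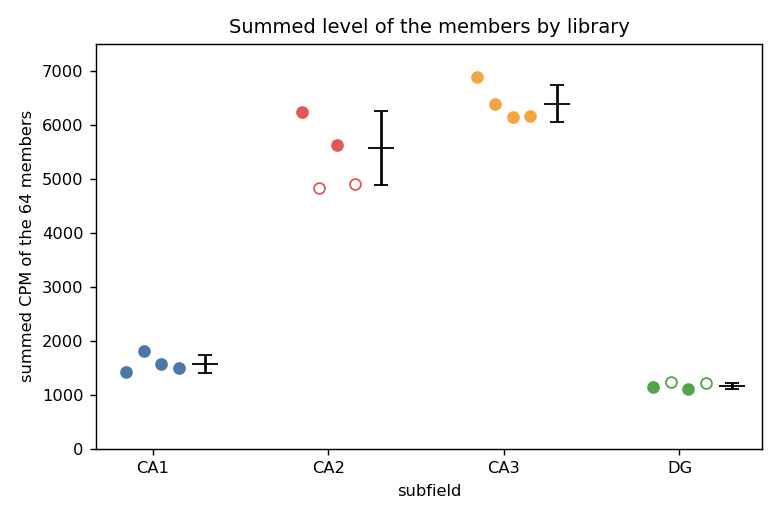
Summed CPM of the 64 members in each library (points, in replicate order 1 to 4 within a subfield), with the mean and SD of each subfield in black. Open points are the repeated libraries, whose mean counts as 1 replicate. CA2 and CA3 libraries lie between 4838 and 6889 CPM, and CA1 and DG libraries between 1108 and 1803 CPM.

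Within CA2, the summed level was 6236 CPM in replicate 1, 5629 CPM in replicate 3, and 4838 and 4904 CPM in replicates 2 and 4. It was thus highest in the library with the least Wfs1 and the fewest reads of the DG markers, and lowest in the repeated pair, which had the most of both. Amigo2 fell in the order of the summed level, with 187, 152, 124 and 116 CPM in CA2 replicates 1, 3, 4 and 2. The 4 CA2 markers with an identifier summed to 274, 241, 189 and 197 CPM in these libraries. Replicates 4 and 2 thus changed places, and as the repeated pair their order carries no weight. Fxyd7 also had the order of Amigo2, with 17.1, 13.9, 7.51 and 5.04 CPM. It is 1 of the 14 genes of the study's CA3 list and was picked after its values were seen. Gjd2 and Vgll3 of that list did not follow this order, with 4.11 to 5.004 CPM and at most 0.296 CPM in CA2. Vgll3 was near the detection limit there, and the CA2 order of the other genes of the list is not given here. Within CA1, the summed level was 1803 CPM in replicate 2, 1575 CPM in replicate 3, 1488 CPM in replicate 4 and 1429 CPM in replicate 1. Amigo2 had the same order in these libraries. Cacng5 did not, with its highest CA1 level in replicate 3 and the next in replicate 2. The part of these marker reads in the members' levels was not tested. CA3 replicate 2, with its higher Wfs1, had a summed level of 6383 CPM, within the 6149 to 6889 CPM of the other CA3 libraries. Without CA3 replicate 2, 64 genes met the rule, of which 61 were among the 64 members. Without CA3 replicate 2 and CA2 replicates 2 and 4, a choice made after the data were seen, 79 genes met it, and 59 of these were members.

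Single members varied in the same way. Of the 64 members, 38 had their highest CA2 level in replicate 1, 38 their highest CA1 level in replicate 2 and 32 their highest CA3 level in replicate 1. Among the 10347 genes with at least 5 CPM in CA2 and CA3, these shares were 35.2%, 25.7% and 32.9%. The median ratio of a member to its subfield mean was 1.19 in CA2 replicate 1, 1.17 in CA1 replicate 2 and 1.08 in CA3 replicate 1, and the same ratio over the 10347 genes was 0.996, 0.993 and 1.02. Without the 4 libraries numbered 1, also left out after the data were seen, 55 genes met the rule, 53 of them members. In the DG libraries the median ratio stayed between 0.941 and 1.01.

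**Figure D2:**
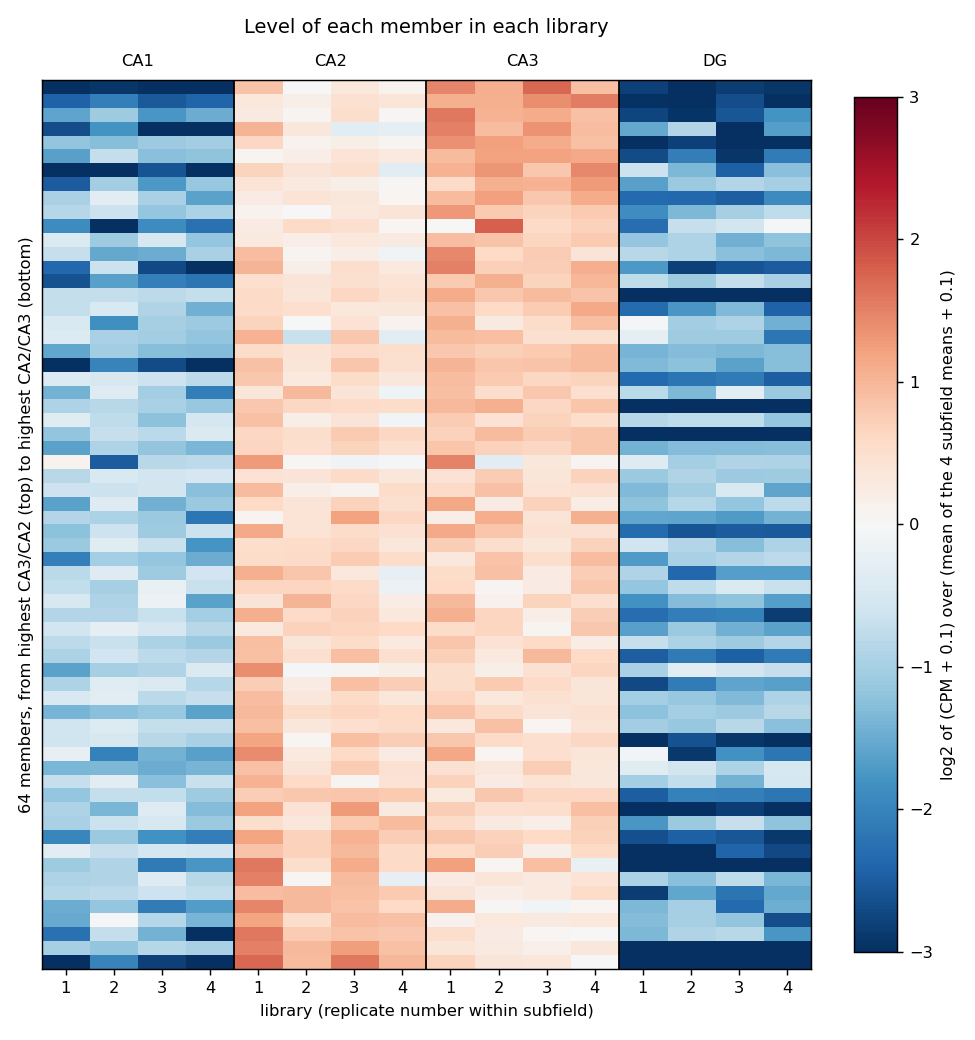
Level of each of the 64 members (rows) in each of the 16 libraries (columns), as log2 of CPM over the mean of the 4 subfield means, with 0.1 CPM added to both, colours limited to 3 units either way. Rows run from the members with the highest CA3 level relative to CA2 (top) to those with the highest CA2 level relative to CA3 (bottom), and the darkest blue cells are mostly in DG.

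The members spanned a wide range of abundance. The lower of the CA2 and CA3 means ran from 5.12 to 814 CPM, with a median of 20.5 CPM. It was under 10 CPM in 21 members, between 10 and 100 CPM in 29 and at least 100 CPM in 14. The median member had 23.2 CPM in CA2 and 25.4 CPM in CA3, against 7.40 CPM in CA1 and 4.54 CPM in DG. In CA1, 26 members were under 5 CPM, and in DG 35 were, of which 25 were under it in both. The smallest count of any member in a CA2 or CA3 library was 12 reads.

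The most abundant member by this measure had 951, 668, 914 and 725 CPM in CA2 replicates 1 to 4 and 1050, 928, 930 and 997 CPM in CA3 replicates 1 to 4. It had 26.4, 130, 80.5 and 62.6 CPM in CA1 and 208, 221, 170 and 213 CPM in DG. The CA1 libraries differed widely among themselves for this gene, and lay below all DG libraries. The member with the highest CA3 mean had 1363, 1240, 1150 and 967 CPM in CA3 replicates 1 to 4 and 818, 566, 601 and 560 CPM in CA2. In CA1 it had 219 to 255 CPM and in DG 46.4 to 75.3 CPM, so that the subfields followed each other without overlap. The next most abundant member had 440 to 494 CPM in CA2 and 477 to 552 CPM in CA3, and its CA1 libraries (103 to 163 CPM) overlapped those of DG (116 to 128 CPM).

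The margin, which is the lower of the CA2 and CA3 means over the higher of the CA1 and DG means, had a median of 2.59. It was under 2.5 in 29 members, from 2.5 to 3 in 16, from 3 to 4 in 11 and at least 4 in 8. CA1 was the higher of the low subfields in 47 members and DG in 17. The largest measured margin, 14.6, belonged to a member near the detection limit outside CA2 and CA3. It had 40, 14, 42 and 20 reads in the CA2 libraries and 78, 86, 114 and 40 reads in the CA3 libraries. Its CA1 libraries held 1 to 4 reads and its DG libraries 0 to 3 reads. With DG set to the 3 reads per library taken here as the limit that a count of 0 allows, its margin was at least 9.0045. This bound lies under the next margin of 9.66, so that the order of the largest margins holds for the measured means only. The next largest margin, 9.66, came from a better measured gene with 75.5 to 129 CPM in CA2, 39.1 to 61.6 CPM in CA3, 2.25 to 9.63 CPM in CA1 and at most 0.949 CPM in DG. Margins of 7.02 and 5.68 followed, in members with 5.04 to 13.8 CPM in the CA2 and CA3 libraries.

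**Figure D3:**
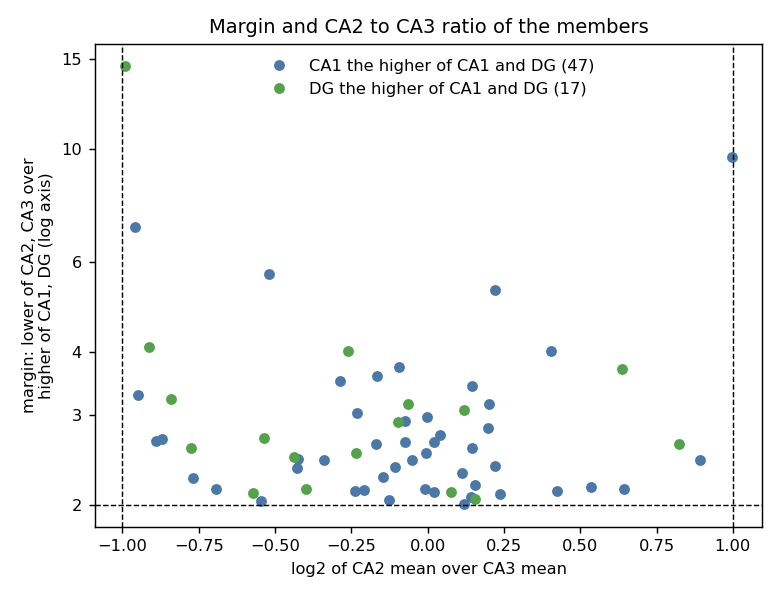
Margin of each member (log axis) against log2 of its CA2 mean over its CA3 mean, coloured by which of CA1 and DG was higher. Dashed lines are the limits of the rule, and 45 of the 64 members have a margin under 3.

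At the edge of the rule, the 3 members with the smallest margins had values of 2.01, 2.04 and 2.04. The closest of them had 104 CPM in CA2, 95.9 CPM in CA3, 47.7 CPM in CA1 and 32.8 CPM in DG. The closest gene outside had a margin of 1.99895, with 410.4 CPM in CA2, 360.02 CPM in CA3, 180.1 CPM in CA1 and 138 CPM in DG, and the next had margins of 1.99872 and 1.988. With these 3, 123 genes met the other limits with a margin between 1.5 and 2. A further 9 genes met all limits except the 2-fold balance, 8 of them with CA3 above CA2. Frem3, which encodes an extracellular matrix protein and is on the study's CA3 list, was among these 9 and was chosen here after its values were seen. It had 111 to 121 CPM in CA3, 7.70 to 10.8 CPM in CA2 and at most 2.43 CPM in CA1 and DG, so that its CA2 level was above CA1 and DG while its CA3 level was 12.1 times that of CA2.

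No single CA2 or CA3 library reached down to the CA1 and DG libraries in most members. In 62 of the 64, every CA2 and CA3 library was above every CA1 and DG library, which held for 2.71% of all 17174 genes tested and follows in large part from the rule. In the first exception, CA2 replicates 2 and 4 had 3.55 and 4.55 CPM and DG replicate 1 had 4.64 CPM. In the second, CA1 replicate 1 had 8.32 CPM, above CA2 replicates 2, 3 and 4 and CA3 replicates 2 and 4, which had 6.19 to 8.18 CPM. Both were low members, with CA2 means of 7.44 and 10.4 CPM.

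Between CA2 and CA3, 39 members had the higher mean in CA3 and 25 in CA2. With each repeated pair averaged first, CA3 was higher in 37 members, and with TMM-scaled CPM in 41. Leaving out each library in turn gave 33 to 44, and leaving out CA3 replicate 2 with CA2 replicates 2 and 4 gave 30. The median log2 ratio of CA2 over CA3 was -0.08, against 0.03 over the 10347 genes with at least 5 CPM in both. In 36 members (56.25%) the means were within 1.2-fold, against 70.9% of those genes. A ratio above 1.5-fold was seen in 10 members toward CA3 and in 5 toward CA2. In 45 members the CA2 and CA3 libraries overlapped. Every CA3 library was above every CA2 library in 14 members (6.01% of all genes tested) and the reverse held in 5 (7.58% of all genes tested).

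The members most unequal toward CA3 included the 1 with the largest measured margin, at 5.40 CPM in CA2 and 10.7 CPM in CA3. Another had 5.33 to 6.48 CPM in CA2 and 10.01 to 13.8 CPM in CA3, with no overlap. The member most unequal toward CA2 had means of 99.5 CPM in CA2 and 49.8 CPM in CA3, and was that with the second largest measured margin. With the repeated CA2 pair counted once its CA2 mean was 107 CPM, more than 2 times that of CA3, so that it did not meet the rule in that case. At the other end, a member with 14.9 CPM in both subfields ranged from 11.4 to 19.6 CPM in CA2 and from 10.5 to 19.3 CPM in CA3. Equal means thus stood beside a wide spread of libraries in both subfields.

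Spread among replicates was larger in the members than in all genes with at least 5 CPM in CA2 and CA3. The median coefficient of variation of a member was 16.2% in CA2 and 15.9% in CA3, against 11.4% and 13.1% over the 10347 genes. In CA1 it was 24.9% against 11.9%, and in DG 23.6% against 11.2%. The members were less abundant in CA1 and DG than in CA2 and CA3, and the comparison was not matched for abundance.

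CA1 and DG, the subfields in which the members were low, were then compared with each other, to ask whether the members were equally low in both. The rule set a ceiling on each but did not relate them. In edgeR's quasi-likelihood test across all genes, 28 of the 64 members (43.8%) were higher in CA1 at a Benjamini-Hochberg adjusted p under 0.05, where 15.1% of all 17174 genes tested were. In the other direction, 5 (7.81%) were higher in DG, where 14.2% of all genes tested were. Among the 10347 genes with at least 5 CPM in CA2 and CA3, the shares were 19.9% and 16.5%. Neither background was held to the rule's ceilings on CA1 and DG. The part of this selection in the members' shares was not tested. The other 31 members did not pass the threshold in either direction. All 64 members passed the filter on low counts and were tested.

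The log2 fold change of CA1 over DG had a median of 0.55 over the 64 members, with quartiles of 0.08 and 1.42, and a median of -0.01 over all genes tested. It was above 0 in 51 members and below 0 in 13. In the 28 members higher in CA1, it ran from 0.54 to 4.47 with a median of 1.55. These are fitted values, and the highest rests on 2 to 4 reads in each DG library. They include a member with 0 to 3 reads in the DG libraries, for which only a lower bound is given below. Of the 5 higher in DG, the log2 fold change ran from -1.50 to -0.71 in 4. The other had 0 to 4 reads in the CA1 libraries and 4 to 11 in DG, and its fold is not given. In 26 members all CA1 libraries were above all DG libraries, against 12.9% of all genes tested. The reverse was seen in 4 members, against 20.0% of all genes tested. The CA1 libraries with more reads of Amigo2 and Cacng5 were replicates 2 and 3, and the part of these reads in the CA1 levels of the members was not tested. Leaving out either library alone left 27 members higher in CA1 and 4 higher in DG, and no fit left out both.

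**Figure D4:**
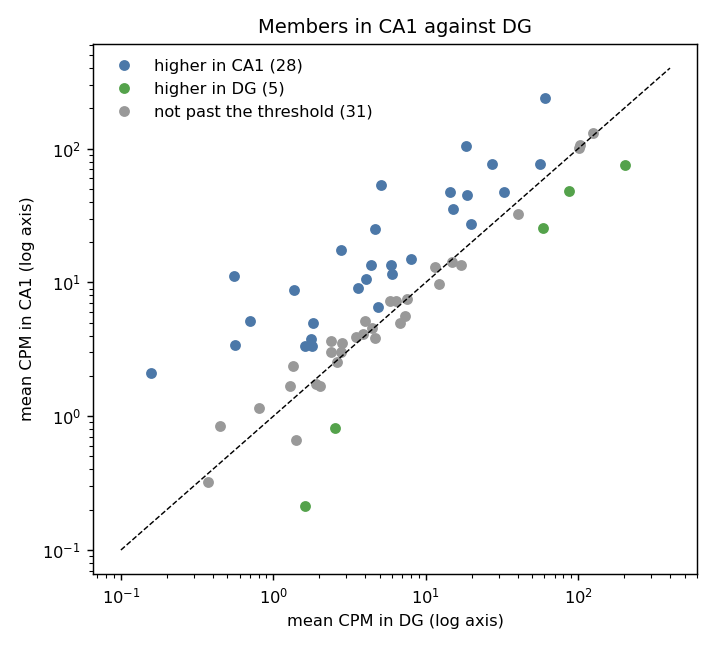
Mean CPM of each member in CA1 against its mean CPM in DG (both axes log), coloured by the edgeR call. The dashed line marks equal levels, and 28 members are called above it and 5 below it.

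The 2 members with the smallest p in each direction, chosen after their values were seen, show the contrast. ENSRNOG00000007027 had 11.1, 9.87, 12.2 and 11.3 CPM in CA1 replicates 1 to 4, and 0.516, 0.420, 0.330 and 0.949 CPM in DG. All CA1 libraries were above all DG libraries, in which the gene had 2 to 4 reads each. Its log2 fold change was 4.47 ± 0.28 (SE), with an adjusted p of 5.6e-11 in edgeR. With so few DG reads the size of this fold is imprecise, and DESeq2 gave 4.52 ± 0.47 (SE). In CA2 it had 63.7, 44.1, 53.3 and 41.4 CPM and in CA3 28.96, 26.9, 25.03 and 28.3 CPM. The levels thus fell in the order CA2, CA3, CA1 and DG, with no overlap between neighbours.

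ENSRNOG00000004516 had 54.2, 54.1, 51.7 and 54.6 CPM in the CA1 libraries and 2.32, 6.30, 2.81 and 8.77 CPM in DG. The CA1 libraries were close to each other, while the repeated pair of DG libraries was above the other two. Its log2 fold change was 3.59 ± 0.23 (SE), with an adjusted p of 6.7e-11 in edgeR. It had 133, 115, 136 and 122 CPM in CA2 and 193, 155, 173 and 161 CPM in CA3, with all CA3 libraries above all CA2 libraries.

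In the other direction, ENSRNOG00000030910 had 63.9, 51.6, 66.03 and 55.01 CPM in DG replicates 1 to 4 and 17.4, 34.7, 25.98 and 23.4 CPM in CA1. All DG libraries were above all CA1 libraries, of which replicate 2 was the highest. Its log2 fold change was -1.14 ± 0.17 (SE), with an adjusted p of 1.4e-05 in edgeR. In CA2 it had 153, 142, 150 and 144 CPM, below the 184, 227, 171 and 215 CPM of CA3.

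ENSRNOG00000027520 had 99.2, 87.6, 67.7 and 92.2 CPM in DG and 49.1, 50.5, 45.8 and 48.5 CPM in CA1, again without overlap. Its log2 fold change was -0.71 ± 0.15 (SE), with an adjusted p of 0.00077 in edgeR. In CA2 it had 236, 166, 217 and 175 CPM and in CA3 175, 162, 215 and 161 CPM, and these overlapped. CA2 replicate 1 and CA3 replicate 3 were the highest of their subfields.

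**Figure D5:**
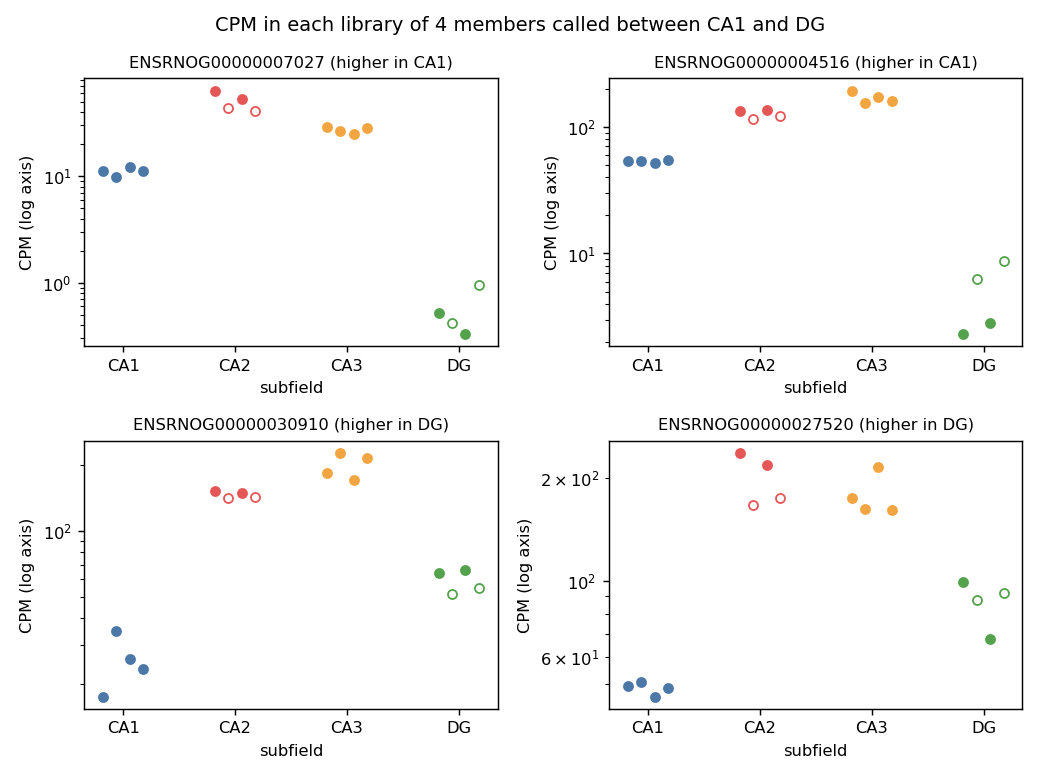
CPM (log axes) in each library of the 4 members given by identifier, in replicate order 1 to 4 within a subfield, with the repeated libraries as open points. The upper pair is higher in CA1 than in DG and the lower pair higher in DG than in CA1, with no overlap between these subfields.

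The most abundant member was also among the 5 higher in DG, with a log2 fold change of -1.29 ± 0.28 (SE) and an adjusted p of 0.0014 in edgeR. The member with the highest CA3 mean was among the 28 higher in CA1, with 2.12 ± 0.16 (SE) and an adjusted p of 1.2e-09. For the next most abundant member, the log2 fold change was 0.18 ± 0.13 (SE), with an adjusted p of 0.31. A member whose DG libraries held 0 to 3 reads was at least 3.498-fold higher in CA1 than that limit, at a mean of 2.10 CPM, and was called higher in CA1.

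The same rule was applied to the other pairs of subfields, as a description. It gave 71 genes for CA1 and DG, 39 for CA1 and CA2, 29 for CA3 and DG, 8 for CA1 and CA3 and 7 for CA2 and DG, beside the 64 for CA2 and CA3. Genes at least 2 times higher in a single subfield than in each other numbered 42 in CA2 and 60 in CA3, and 137 in CA1 and 585 in DG. On the study's lists, the next highest subfield of the 14 CA2 markers was CA1 for 8 and CA3 for 6. For the 14 CA3 markers it was CA2 for 7, DG for 5 and CA1 for 2. Among those with at least 5 CPM in their highest subfield, it was CA1 for 4 and CA3 for 4 of the CA2 markers, and DG for 5, CA2 for 4 and CA1 for 1 of the CA3 markers. Across all genes tested, 2032 were higher in the mean of CA2 and CA3 than in CA1 in edgeR (11.8%) and 1965 were lower (11.4%). Against DG, 3714 were higher (21.6%) and 3558 lower (20.7%). These are the contrasts that the rule used, and the genes given as higher include all 64 members, from which nothing is read.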

How the data were processed

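The authors aligned paired reads of stranded total RNA libraries to the rat Rnor6 genome with STAR 2.6 and deposited a table of raw read counts per Ensembl gene. The counting program and its strand setting are not given in the sources used here. The 6 deposited comparison tables hold the authors' own DESeq2 fold changes and p-values and were not used. The members and lists were chosen with earlier results of these data known.

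CPM was computed from the counts. In edgeR 4.0.16 (R 4.3.3, limma 3.58.1), genes whose counts over all libraries exceeded 10 entered a quasi-likelihood F-test with TMM normalization and 1 coefficient per subfield, and p-values were adjusted by Benjamini-Hochberg over 17174 genes. Columns of a subfield with a chi-square per degree of freedom under 1.1 were summed. The standard error is the log2 fold change over the square root of F. The test was checked on simulated counts. Alternatives used DESeq2 1.42.0, other size factors and filters, a replicate block, other limits of the rule, and each library left out. Python 3.11.15, numpy 2.4.6, pandas 2.3.3, scipy 1.17.1 and matplotlib 3.10.9 were used.

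The rule for named genes took members with a symbol: those with the largest and smallest margins, the most abundant, those most unequal between CA2 and CA3, those with the smallest p between CA1 and DG, and those in fixed lists or families. It named none, since no member has a symbol, and lists of energy metabolism, antioxidant and synaptic vesicle genes could not be matched and were not analysed. Marker genes were matched through the study's marker list. Of the marker genes of the fixed lists, 1 is left out of this report. Libraries differed 3.71-fold in total counts, and counts of 3 or fewer were taken as the limit that a count of 0 allows, which covers counting error only.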

Additional observations from a re-analysis of the deposited data

Results flagged for a closer look

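Among 17 quantities given for CA1 and CA3, 34 groups of 4 libraries were examined for a library far from the others, and 2 were found, where chance gives about 1 in 20 groups. In CA3, Wfs1 had 129 CPM in replicate 2, far above the other CA3 libraries. In CA1, ENSRNOG00000004516 had 51.7 CPM in replicate 3, below 54.1 to 54.6 CPM in the other CA1 libraries, a gap that is large only beside their close agreement.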

How the results depend on the processing

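The number of genes meeting the rule followed its limits. It was 187 at a margin of 1.5, 19 at a margin of 3 and 99 at a minimum of 1 CPM, and 43 at a minimum of 10 CPM and 49 at a balance of 1.5-fold. With TMM-scaled CPM it was 77, of which 63 were among the 64 members, and with the 2 mitochondrial genes in the totals it was 49, all of them members. Averaging the repeated columns first gave 69 genes, 63 of them members. Leaving out each library in turn gave between 56 and 69 genes, the lowest without CA2 replicate 1, and 39 of the 64 members met the rule in all 16 of these cases. Over the 26 alternatives to the test, 26 to 29 members were higher in CA1 than in DG and 4 or 5 were higher in DG, and 25 of the 28 and 4 of the 5 were called in every alternative. The count of 4 arose without CA1 replicate 2, 3 or 4 or DG replicate 2, 3 or 4. The 4 members given by identifier kept their direction and call in all alternatives. With a replicate block, which takes libraries of the same number as paired, 29 members were higher in CA1 and 5 in DG in all 3 versions. With repeated columns summed, 3003 and 3080 genes in all were higher in CA1 with the block, against 2601 without it. With all 16 columns kept as libraries, 3466 were higher in CA1 with the block, against 2958 without it. The labels give libraries of the same number a common tag across the subfields, without saying that it marks a rat. Deviations of libraries with the same number had correlations from -0.13 to 0.69, 19 of 24 of them over 0.1, and 12 of 16 libraries were most like another of their own number. Low totals limit the low members most, since 3 reads are worth 1.21 CPM in CA1 replicate 4.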
